A study of Mus musculus with 11 samples.

Results

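The core circadian clock genes examined were Arntl, Clock, Per1, Per2, Per3, Cry1, Cry2, Nr1d1, Nr1d2 and Dbp. They were measured in the left ventricle of naive mice and of other mice after myocardial infarction (MI). These 10 genes were taken by name and matched by symbol to the Ensembl identifiers of the count files, which list 25006 genes. All 10 passed the filter on low counts, as did 14779 genes in all. Each of the 11 libraries is bulk mRNA from the left ventricle of 1 mouse. There were 2 naive control mice, 3 naive mice lacking Vegfc in myeloid cells, 3 control mice after MI and 3 Vegfc-deficient mice after MI. MI was produced by permanent ligation of the left anterior descending coronary artery, and infarcted tissue was taken 9 days later. For naive mice, which had no ligation, a matching piece of the ventricle was used. The groups include no sham-operated mice, so ligation cannot be told apart from the surgery, anaesthesia and buprenorphine given with it. The genotype label of the control mice is Vegfc fl/fl, whereas the protocol names them LysMCre mice, so whether the controls carry Cre is not settled by the sources. Vegfc-deficient mice are Vegfc fl/fl;LysMCre, in which Cre is driven from the Lyz2 locus in macrophages, monocytes and neutrophils, so other cells of the heart keep Vegfc. Age and the time of day at which hearts were taken are not given in the sources used here.

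The circadian clock is a feedback loop of transcription found in nearly every cell, cardiomyocytes included. Arntl (BMAL1) and Clock form a heterodimer that binds E-boxes and activates the Per and Cry genes, Nr1d1, Nr1d2 and Dbp, and the PER and CRY proteins then repress that heterodimer. Nr1d1 and Nr1d2 (REV-ERBs) repress Arntl through elements shared with the ROR activators, and Dbp activates genes through D-boxes. Transcript levels of several of these genes swing widely over the day, with Arntl near its peak when Dbp and Nr1d1 are near their trough. In the heart the loop is known for daily rhythms in metabolism and ion channel expression. A single collection per mouse therefore gives 1 point on that cycle.

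Promoter sequence is shown for the members with a match to 1 of the elements through which the loop acts, since the results below are ordered by those roles. RefSeq promoter windows of GRCm38.p6, each of 300 bases from 250 before a start site to 50 after it, were matched by symbol for 9 of the 10 members, with 13 windows in all. Per2 had no match. The elements searched on both strands were the E-box CACGTG, the E'-box CACGTT, the D-box TTATGNAA, the ROR and REV-ERB element (RORE), which is AA, any 2 bases and TAGGTCA, and the cyclic AMP element TGACGTCA. No pair of these elements overlapped in a member's window. Capitals mark the match, in lines that run 5′ to 3′ on the strand of the gene. The Per3 stretch lies at chr4:151044801-151044885 on the minus strand, from 220 to 136 bases before the start site, and holds 2 D-boxes.
Per3: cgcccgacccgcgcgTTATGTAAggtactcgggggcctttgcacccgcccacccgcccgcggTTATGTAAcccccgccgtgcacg
Per1 E-box: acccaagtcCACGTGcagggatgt
Per1 D-box: ggcctggcaTTATGCAAcccgcctcc
Cry1 E-box: gccggtggtCACGTGgggtgcatg
Cry2 E'-box: catggtgggAACGTGagggggcgg
Nr1d1 E'-box: acagatctcAACGTGccggctgct
Arntl RORE: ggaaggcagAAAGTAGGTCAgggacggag

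The Per1 windows lie at chr11:69098774-69098797 and chr11:69098916-69098941 on the plus strand. The Cry1 window is at chr10:85185100-85185123, the Cry2 window at chr2:92434221-92434244 and the Nr1d1 window at chr11:98775391-98775414, all on the minus strand, and the Arntl window at chr7:113207528-113207556 on the plus strand. The Arntl match starts 26 bases after the start site, within the transcribed sequence. Of the 32851 promoter windows, 3.38% held a D-box and 0.161% held 2 or more. An E-box was in 7.15% of all windows, an E'-box in 4.68%, a RORE in 0.155% and a cyclic AMP element in 1.79%. Cry1 also had an E'-box, and the windows of Clock, Nr1d2 and Dbp held no match to any of the searched letters. A match describes the letters of a window and is no evidence of binding in these hearts.

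Total counts ran from 10824989 to 26782728 per library, and 3 counts corresponded to 0.101 to 0.363 CPM, which are counts scaled to library size with TMM factors. All values below are in this unit unless a log2 scale is named. No pair of replicates agreed within sampling noise. Lyz2, the locus that carries LysMCre, was at 4565 CPM in M149, a library labelled naive Vegfc-deficient, against 2121 and 2282 CPM in the naive controls and 72.5 and 244.7 CPM in the other naive Vegfc-deficient libraries. Its level went against the label of M149. After MI it was at 4538 to 5380 CPM in controls, and at 1392 CPM in M35, 203.3 CPM in M900 and 12.4 CPM in M913, the Vegfc-deficient libraries. Vegfc itself was at 25.1 and 34.7 CPM in naive controls and at 27.5 to 34.5 CPM in naive Vegfc-deficient libraries, and at 21.9 to 45.5 and 22.4 to 29.4 CPM in the MI groups, so the whole-tissue level did not separate the genotypes. Xist ranged from 187.7 to 403.4 CPM over the 6 MI hearts and from 0.624 to 11.8 CPM over the 5 naive hearts, while the summed Y-linked genes were at 0 to 1.84 and 152.2 to 195.2 CPM. Sex and MI therefore cannot be told apart in any comparison of MI with naive hearts.

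The tissue itself differed in make-up. Summed CPM of 10 cardiomyocyte markers was 75100 to 105461 in naive libraries and 2750 to 27284 after MI, and 9 of the 10 fell in each genotype, where 24.1% of all genes were called lower in control and 27.7% in Vegfc-deficient hearts. Of 8 fibroblast markers, 6 rose in control hearts and 7 in Vegfc-deficient hearts, beside 26.3% and 30.0% of all genes called higher, and their sum went from 5370 to 6887 CPM to 32724 to 52762 CPM. Of 8 macrophage markers, 5 rose in each genotype, with sums of 1761 to 2514 CPM in naive and 2382 to 6029 CPM in MI libraries. Endothelial markers summed to 779.5 to 1204 CPM and 491.5 to 1005 CPM, red cell genes to 1092 to 4383 CPM and 308.9 to 1375 CPM, neutrophil genes to 20.2 to 109.7 CPM and 35.5 to 342.7 CPM, and lymphocyte genes to 5.35 to 15.5 CPM and 13.4 to 106.9 CPM, in naive and MI libraries respectively. Skeletal muscle markers summed to at most 11.4 CPM and lung markers to at most 2.26 CPM in any library. In bulk tissue, fewer cells of a type and less RNA per cell cannot be told apart, and the part of this change in the clock gene values was not tested.

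**Figure D1:**
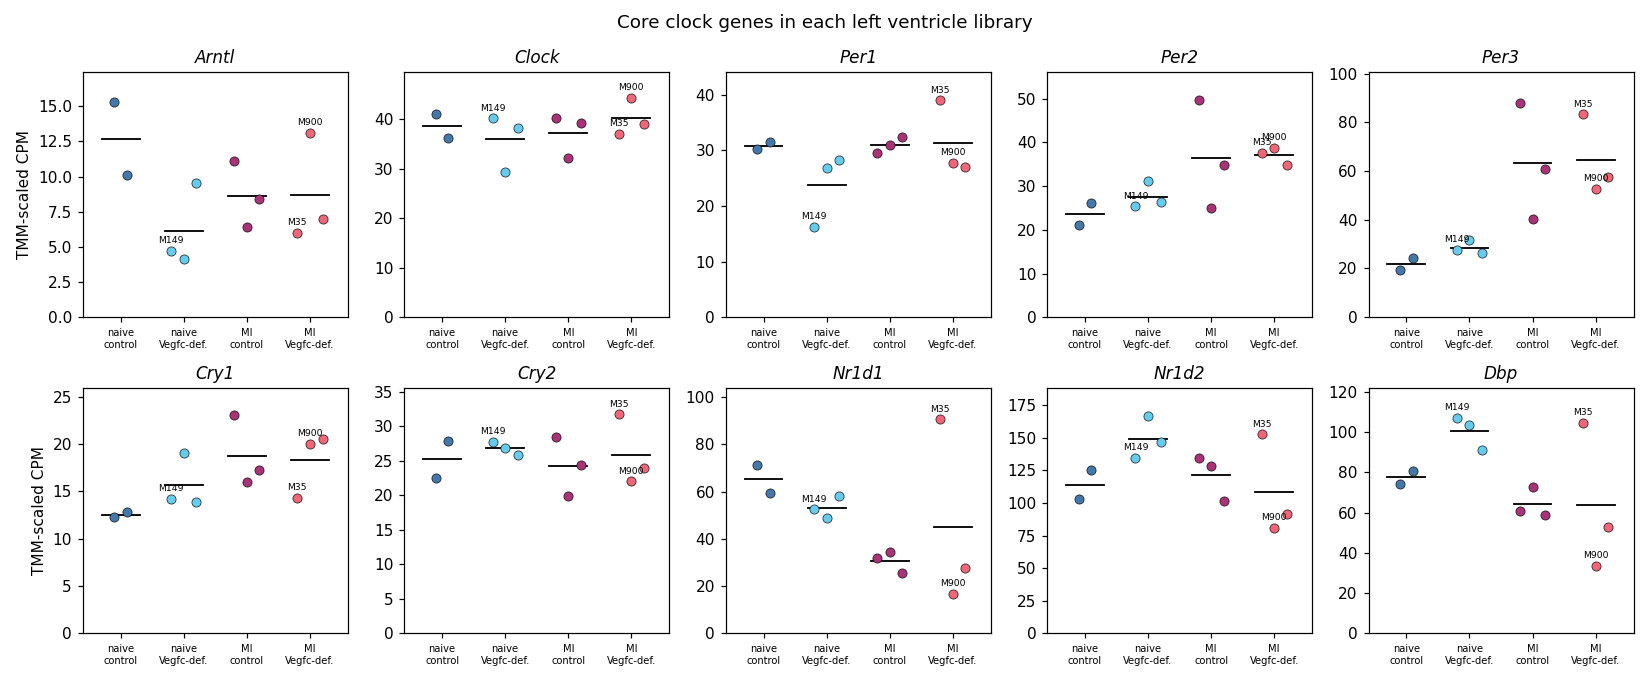
TMM-scaled CPM of each clock gene (y axis, from 0) in each of the 11 libraries by group (x axis), where points are mice and bars are group means. Per3 lay at 40.3 to 88.1 CPM after MI and 19.3 to 31.5 CPM in naive hearts, and Nr1d1 in M35 stood at 90.7 CPM against 16.7 to 34.6 CPM in the other MI libraries.

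Whether the clock genes differ between infarcted and naive hearts was tested within each genotype. Per3, a period gene whose protein joins the repressor complex, rose in both genotypes, and the other 9 members did not pass the test in either. That is 1 of 10 members per genotype, where 50.4% of all tested genes were called in control hearts and 57.6% in Vegfc-deficient hearts. Genes called higher made up 26.3% and 30.0% of those tested, and genes called lower 24.1% and 27.7%. The members that separated the groups without overlap were 4 of 10 in control hearts and 2 of 10 in Vegfc-deficient hearts, against 72.1% and 64.3% of all tested genes. The median log2 fold change of the members was -0.02 in control and 0.19 in Vegfc-deficient hearts, and that of all tested genes 0.13 and 0.10. Each adjusted p of a gene is the quasi-likelihood value of edgeR after Benjamini-Hochberg adjustment across 14779 genes.

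Per3 (chromosome 4 of GRCm38, 151003652 to 151044665, minus strand) was at 19.3 and 24.4 CPM in naive control hearts M44 and M45, and at 88.1, 40.3 and 61.0 CPM in MI control hearts M006, M38 and M40. It was at 27.6, 31.5 and 26.4 CPM in naive Vegfc-deficient hearts M149, M150 and M34, and at 83.2, 52.7 and 57.4 CPM in MI Vegfc-deficient hearts M35, M900 and M913. All 6 MI libraries lay above all 5 naive ones. The log2 fold change was 1.53 (standard error 0.316, adjusted p = 0.00302 by edgeR) in control and 1.18 (standard error 0.271, adjusted p = 0.00407 by edgeR) in Vegfc-deficient hearts, or 2.89-fold and 2.26-fold. Without M149 the latter was 1.15 (adjusted p = 0.0134 by edgeR), and without M35 it was 0.95 (adjusted p = 0.0134 by edgeR). With both left out it was 0.93 (adjusted p = 0.0319 by edgeR). A difference between the 2 fold changes did not pass the interaction test (-0.35, 95% interval -1.25 to 0.54, adjusted p = 0.835 by edgeR).

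Per2 (chromosome 1, 91415982 to 91459324, minus strand) and Per1 (chromosome 11, 69095217 to 69109960, plus strand), the other period genes, did not pass. Per2 was at 21.1 and 26.2 CPM in naive control hearts, 25.4, 31.1 and 26.3 CPM in naive Vegfc-deficient, 49.6, 25.0 and 34.9 CPM in MI control and 37.6, 38.8 and 34.9 CPM in MI Vegfc-deficient hearts. MI control M38 lay inside the naive range, whereas the MI Vegfc-deficient libraries all lay above it. The log2 fold change of Per2 was 0.62 (95% interval 0.08 to 1.17, adjusted p = 0.0567 by edgeR) in control and 0.43 (-0.05 to 0.91, adjusted p = 0.113 by edgeR) in Vegfc-deficient hearts. Without M38 the control value was 0.77 (adjusted p = 0.00857 by edgeR). Over all single libraries left out, it ran from 0.34 to 0.79.

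Per1 was at 30.2 and 31.5 CPM in naive control hearts, 16.3, 26.9 and 28.2 CPM in naive Vegfc-deficient, 29.6, 30.9 and 32.5 CPM in MI control and 39.0, 27.8 and 27.0 CPM in MI Vegfc-deficient hearts. The lowest value was that of M149 and the highest that of M35. Its log2 fold change was 0.01 (-0.51 to 0.52) in control and 0.39 (-0.07 to 0.86, adjusted p = 0.125 by edgeR) in Vegfc-deficient hearts. The ratio of Per3 to Per2 counts within a library, which does not depend on scaling between libraries, was -0.13 to 0.12 on the log2 scale in naive hearts and 0.44 to 1.14 after MI, with no overlap. That of Per3 to Per1 was -0.65 to 0.76 in naive hearts and 0.38 to 1.58 after MI, and these ranges overlapped.

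**Figure D2:**
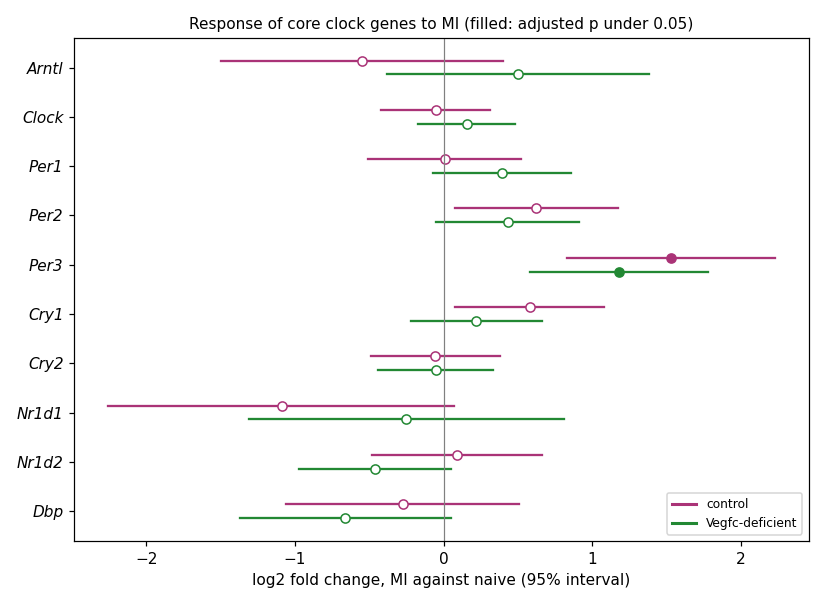
Log2 fold change of MI against naive hearts (x axis) for each clock gene (y axis) in control and Vegfc-deficient mice, where lines are 95% intervals and filled points have an adjusted p under 0.05 by edgeR. Per3 is the gene with filled points, at 1.53 and 1.18, and the Nr1d1 intervals are among the widest.

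Cry1 (chromosome 10, 85131700 to 85185064, minus strand) and Cry2 (chromosome 2, 92403646 to 92434043, minus strand) encode the cryptochromes, the other arm of the repressor complex. Cry1 was at 12.3 and 12.8 CPM in naive control hearts, 14.2, 19.0 and 13.9 CPM in naive Vegfc-deficient, 23.0, 16.0 and 17.3 CPM in MI control and 14.3, 20.0 and 20.5 CPM in MI Vegfc-deficient hearts. The control groups did not overlap and the Vegfc-deficient groups did. Its log2 fold changes were 0.58 (0.08 to 1.08, adjusted p = 0.0545 by edgeR) and 0.22 (-0.22 to 0.66). Cry2 lay between 19.9 and 31.7 CPM in every library, with log2 fold changes of -0.06 (-0.49 to 0.38) and -0.05 (-0.44 to 0.33).

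Arntl (chromosome 7, 113207465 to 113314126, plus strand), the activator without which the loop stops, had the lowest level per length of the members. It was at 15.3 and 10.1 CPM in naive control hearts, 4.71, 4.12 and 9.52 CPM in naive Vegfc-deficient, 11.1, 6.42 and 8.44 CPM in MI control and 5.99, 13.1 and 6.96 CPM in MI Vegfc-deficient hearts. The naive and MI ranges overlapped in both genotypes. The log2 fold change was -0.55 (-1.50 to 0.40, adjusted p = 0.307 by edgeR) in control and 0.50 (-0.38 to 1.38, adjusted p = 0.303 by edgeR) in Vegfc-deficient hearts. Clock (chromosome 5, 76209868 to 76304792, minus strand), its partner, was the steadiest member with Cry2, at 29.4 to 41.1 CPM in naive and 32.2 to 44.3 CPM in MI libraries. Its log2 fold changes were -0.05 (-0.42 to 0.31) and 0.16 (-0.17 to 0.48).

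Nr1d1 (chromosome 11, 98767932 to 98775333, minus strand), the REV-ERBα repressor, was at 71.5 and 59.6 CPM in naive control hearts and 52.5, 48.9 and 58.3 CPM in naive Vegfc-deficient hearts. After MI it was at 31.9, 34.6 and 25.8 CPM in control hearts M006, M38 and M40, and at 90.7, 16.7 and 27.6 CPM in Vegfc-deficient hearts M35, M900 and M913. In all, 5 of the 6 MI libraries lay below every naive library and M35 lay above every one. The log2 fold change was -1.09 (-2.26 to 0.07, adjusted p = 0.106 by edgeR) in control and -0.25 (-1.31 to 0.81, adjusted p = 0.676 by edgeR) in Vegfc-deficient hearts. Without M35 they were -1.09 (adjusted p = 0.00249 by edgeR) and -1.27 (adjusted p = 0.00122 by edgeR), so in this fit the call was gained by leaving out 1 library. The control value itself did not move, because M35 enters that test through the shared estimate of spread. Without M900 the control call was also gained (-1.13, adjusted p = 0.0377 by edgeR). The Vegfc-deficient value without M900 was 0.15 (adjusted p = 0.778 by edgeR). With all libraries kept, limma-voom with quality weights called Nr1d1 in both genotypes (-1.11 and -1.01, adjusted p = 0.0209 and 0.0194). With only the groups compared, edgeR called it in control hearts (-1.10, adjusted p = 0.00504).

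Nr1d2 (chromosome 14, 18204054 to 18239127, minus strand), the REV-ERBβ repressor, was at 102.8 and 125.0 CPM in naive control, 134.6, 166.5 and 146.7 CPM in naive Vegfc-deficient, 134.3, 128.3 and 101.2 CPM in MI control and 152.5, 80.9 and 91.7 CPM in MI Vegfc-deficient hearts. Again M35 was the highest MI library and M900 the lowest. Log2 fold changes were 0.09 (-0.48 to 0.66) in control and -0.46 (-0.97 to 0.05, adjusted p = 0.107 by edgeR) in Vegfc-deficient hearts, the latter -0.79 (adjusted p = 0.0039 by edgeR) without M35. Without M900 the Vegfc-deficient value was -0.29 (adjusted p = 0.325 by edgeR).

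Dbp (chromosome 7, 45705088 to 45710203, plus strand), a PAR bZIP activator and direct output of the loop, was at 74.0 and 80.8 CPM in naive control, 107.0, 103.5 and 91.2 CPM in naive Vegfc-deficient, 60.7, 72.6 and 58.7 CPM in MI control and 104.5, 33.5 and 52.8 CPM in MI Vegfc-deficient hearts. All MI control libraries lay below the naive controls, and M35 lay within the naive Vegfc-deficient range. Its log2 fold changes were -0.27 (-1.06 to 0.51) and -0.66 (-1.37 to 0.05, adjusted p = 0.0997 by edgeR), and without M35 the latter was -1.22 (adjusted p = 0.000787 by edgeR). Without M900 the Vegfc-deficient value was -0.36 (adjusted p = 0.281 by edgeR). Leaving out M35 thus moved the count of members called in Vegfc-deficient hearts from 1 to 4 (Per3 higher, Nr1d1, Nr1d2 and Dbp lower), and in control hearts from 1 to 3 (Per3 and Cry1 higher, Nr1d1 lower), where 57.2% and 51.5% of all genes were called. With M149 also left out, the counts were again 4 and 3, beside 57.4% and 53.4% of all genes. In each of these fits the share of the 10 members called was below that of all genes. M35 had the highest cardiomyocyte marker sum after MI, 27284 CPM, and M40, M900, M006, M913 and M38 had 2750, 6111, 11142, 12001 and 15140 CPM.

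Some of these genes share exon sequence with another gene on the opposite strand, and the strand setting of the counting is not given in the sources used here. Dbp shares 539 bases, 18.0% of its exons, with Sphk2, and Nr1d1 shares 263 bases, 8.55%, with Thra. Sphk2 was at 11.4 to 23.5 CPM and Thra at 47.5 to 66.2 CPM over all libraries, and neither passed the test in either genotype. Cry2 shares 295 bases with D930015M05Rik, which stayed at or below 0.183 CPM, and Arntl shares 33 bases with Gm45355, which the files do not list.

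In levels per kilobase of exon, Dbp, Nr1d2 and Nr1d1 led in both states, at 30.5 ± 4.73, 25.0 ± 4.40 and 18.9 ± 2.81 CPM per kilobase (SD, n = 5) in naive hearts and 21.3 ± 7.91, 21.2 ± 5.13 and 12.3 ± 8.64 (SD, n = 6) after MI. Arntl was lowest at 1.16 ± 0.603 and 1.15 ± 0.381 CPM per kilobase. Per3 moved from the ninth place of 10 in naive hearts, at 2.69 ± 0.467, to the fourth after MI, at 6.64 ± 1.91. Neighbours in the order overlapped between libraries except Nr1d1 over Per1 and Cry2 over Clock in naive hearts, and Clock over Arntl after MI.

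The effect of myeloid Vegfc deficiency was tested in MI and in naive hearts. No member passed in either, nor in the interaction with MI (0 of 10 in each, beside 0% of all 14779 genes by edgeR). At an unadjusted p under 0.05 the counts were 0 of 10 members in MI hearts against 7.94% of genes, 1 of 10 in naive hearts against 3.38% and 0 of 10 for the interaction against 8.30%. By the DESeq2 Wald test 51, 14 and 55 genes were called in the 3 comparisons, none of them a member. The MI groups overlapped for all 10 members, where 12.1% of all genes did not overlap. Their fold changes on the log2 scale ran from -0.16 for Nr1d2 to 0.54 for Nr1d1 (95% interval -0.51 to 1.60, adjusted p = 0.808 by edgeR). That of Per3 was 0.03 (-0.55 to 0.61) and that of Dbp -0.01. The values of Nr1d1, Nr1d2 and Dbp turned on single libraries. Without M35 they were -0.47 for Nr1d1, -0.49 for Nr1d2 and -0.57 for Dbp (adjusted p = 0.822 for each by edgeR). Without M900 they were 0.97, 0.04 and 0.32 (adjusted p = 0.767, 0.985 and 0.816 by edgeR). Without MI control M38, that of Dbp was 0.13.

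In naive hearts 7 of 10 members did not overlap between genotypes, beside 22.4% of all genes. Arntl, Per1 and Nr1d1 were lower and Per3, Cry1, Nr1d2 and Dbp higher in all 3 Vegfc-deficient libraries than in both controls. This places M149 by its label, which its Lyz2 level went against. Counted as a control, M149 would leave only Nr1d2 of these without overlap. The members belong to 1 loop, so they are not separate observations. The unadjusted p was under 0.05 for Arntl alone (log2 fold change -1.03, 95% interval -2.01 to -0.06, adjusted p = 1 by edgeR), and without M149 its log2 fold change was -0.87 (adjusted p = 0.813 by edgeR). There were 2 naive control mice, and the part of collection time in these values was not tested.

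How far mice of 1 group differed was compared with all genes. The SD of a state pools both genotypes, each around its own mean. After MI the within-group SD of Nr1d1 was 0.897 on the log2 scale, above 93.2% of tested genes, and that of Dbp 0.594, above 83.2%. In naive hearts the same genes were at 0.150 and 0.112, above 28.3% and 15.6%. The SD of Arntl was large in both states, 0.575 and 0.503, above 86.8% and 77.5% of genes. Clock, at 0.212 and 0.155, lay below the median of all genes, 0.220 in naive and 0.268 in MI hearts. M35 and M900, both Vegfc-deficient, were the ends of the MI range of Nr1d1 and of Dbp. Without M35 the MI values of Nr1d1 ran from 16.7 to 34.6 CPM. In MI controls Nr1d1 ran from 25.8 to 34.6 CPM and Dbp from 58.7 to 72.6 CPM. In MI Vegfc-deficient hearts they ran from 16.7 to 90.7 CPM and from 33.5 to 104.5 CPM.

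**Figure D3:**
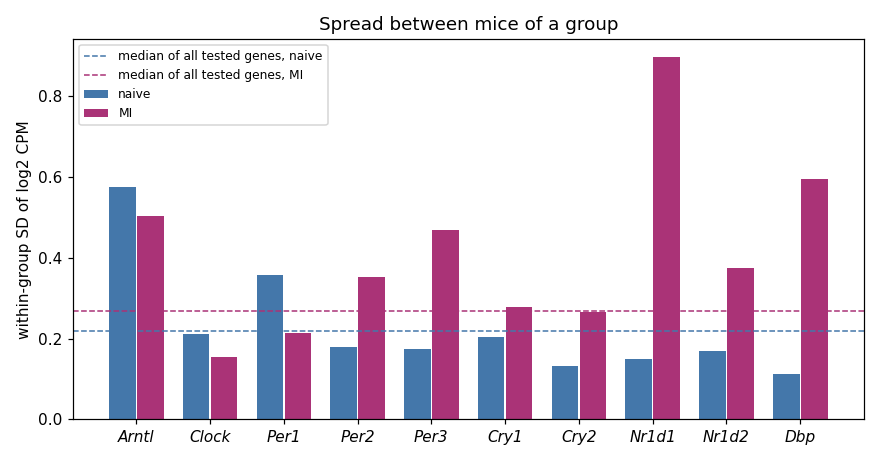
Within-group SD of log2 CPM (y axis, from 0) for each clock gene in naive and MI hearts, pooled over both genotypes. Dashed lines are at the median of all tested genes. Nr1d1 stood at 0.897 after MI and 0.150 in naive hearts.

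Within the MI hearts M35 and M900 stood at opposite ends for Arntl, Nr1d1, Nr1d2 and Dbp. M35 had the highest Nr1d1, Nr1d2 and Dbp and the lowest Arntl, and M900 had the lowest Nr1d1, Nr1d2 and Dbp and the highest Arntl. No Per or Cry gene had these libraries at both ends, and Per2 and Per3 were highest in M006 and lowest in M38. The log2 ratio of Arntl to Nr1d1 counts was -3.92 in M35 and -0.35 in M900, from 102 against 1543 counts and 313 against 398 counts. In MI controls it ran from -2.43 to -1.52. The log2 ratio of Arntl to Dbp was -4.12 in M35 and -1.35 in M900.

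**Figure D4:**
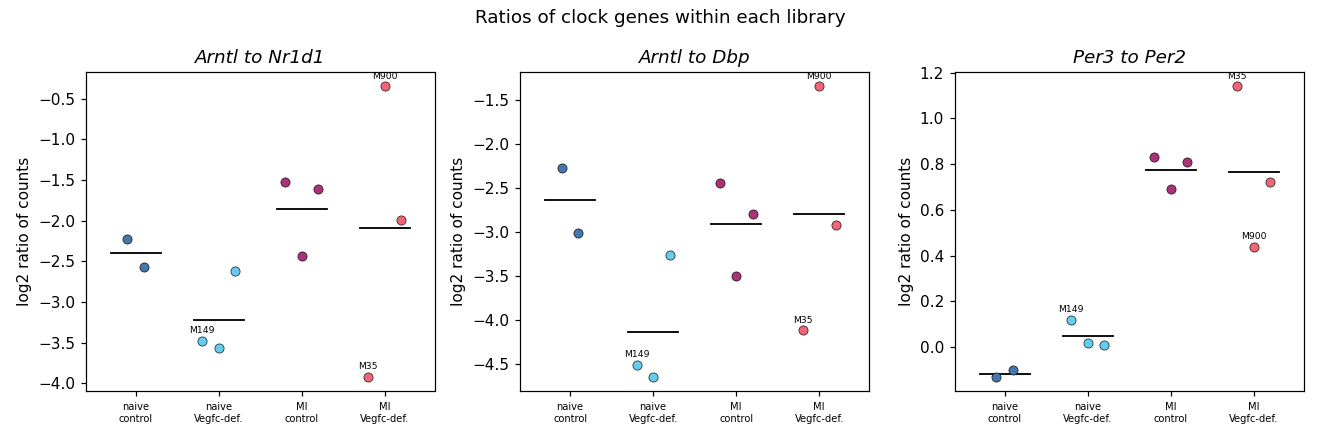
Log2 ratio of the counts of 2 clock genes (y axis) within each library by group (x axis), where points are mice and bars are group means. Arntl to Nr1d1 spans -3.92 to -0.35 in MI Vegfc-deficient hearts, and Per3 to Per2 lies at 0.44 to 1.14 after MI and -0.13 to 0.12 in naive hearts.

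Over the 6 MI libraries Arntl was compared with each of the 9 other members. Pearson's r was 0.80 with Clock (Spearman's rho 0.94), 0.72 with Cry1 (0.71), -0.71 with Nr1d1 (-0.83) and -0.80 with Dbp (-0.77). Exact permutation p-values for r were 0.0333, 0.11, 0.0833 and 0.0444, and 0.2, 0.247, 0.247 and 0.2 after adjustment over 9 pairs. For rho they were 0.0167, 0.136, 0.0583 and 0.103 by exact permutation, and 0.15, 0.306, 0.262 and 0.306 after adjustment. None of the 9 passed at 0.05. Without M900 and M006, the libraries farthest from the median of Arntl, r was 0.54 with Clock, 0.50 with Cry1, -0.76 with Nr1d1 and -0.72 with Dbp. That leaves 4 libraries and keeps M35, which had the lowest Arntl and the highest Nr1d1 and Dbp after MI. For the other 5 members r over the 6 MI libraries ran from -0.54 (Per1) to 0.61 (Per2). With each genotype's mean subtracted, r was 0.90, 0.72, -0.71 and -0.82 for the same 4 genes. Naive hearts, at 5, were too few for a correlation.

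The genes whose pattern was most like that of Arntl and Dbp were ranked by r of log2 CPM after subtracting group means, over 11 libraries and 11438 genes with a mean of at least 5 CPM. This is a description, since the values share libraries, depth and tissue make-up. Nearest to Arntl were Tmpo (r = 0.97), Zbtb11 (0.95), Smpd4 (0.94), Wdr82 (0.92) and Garnl3 (0.91), and nearest to Dbp were Nmnat3 (0.97), Ier3 (0.96), Carns1 (0.96), Ccdc159 (0.95) and Gpr146 (0.95). Among clock genes, Nr1d1 ranked 7 for Dbp (r = 0.94) and Nr1d2 ranked 107 (0.85). The other members ran from -0.68 (Arntl) to 0.58 (Cry2) with Dbp. Hlf, the PAR bZIP relative of Dbp, ranked 50 (0.88), and Ciart, a repressor of the ARNTL and CLOCK heterodimer, ranked 137 (0.84). These were the highest of the accessory clock genes, which ran down to -0.90 for Nono, at rank 19 from the bottom. Dbp, Nr1d1, Nr1d2, Hlf and Ciart all had their highest MI value in M35, and the ranks were not recomputed without it. For Arntl, Clock ranked 273 (0.72), Dbp ranked 156 from the bottom (-0.68), and Per1 was at -0.01.

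Other genes of the pathway were taken from lists of regulators and outputs. Of 23 accessory clock genes, 4 rose, 3 fell and 16 did not pass in control hearts after MI, and 6 rose, 5 fell and 12 did not pass in Vegfc-deficient hearts, with median log2 fold changes of 0.08 and 0.02. That is 7 and 11 genes called of 23, beside 50.4% and 57.6% of all genes. Usp2, a deubiquitinase that acts on clock proteins, fell by 2.05 and 1.61 on the log2 scale in control and Vegfc-deficient hearts (adjusted p = 0.000787 and 0.0011 by edgeR). Nono, a partner of the PER proteins, rose by 0.77 and 0.82. Csnk1d, the kinase that marks PER for turnover, rose by 0.63 and 0.69, and Fbxw11, an F-box protein of PER turnover, by 0.50 in both. The PAR bZIP genes Hlf and Tef had log2 fold changes of -0.35 and 0.17 in control and -0.51 and 0.07 in Vegfc-deficient hearts, none of which passed.

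Of 12 output genes, 1 rose, 7 fell and 4 did not pass in each genotype, with median log2 fold changes of -1.42 and -1.39 beside 0.13 and 0.10 for all genes. That is 8 called of 12 in each genotype, beside 50.4% and 57.6% of all genes. The gene that rose was not the same in both genotypes. The 7 that fell in both were Ucp3 (-3.80 and -2.79), Tfrc (-3.11 and -3.39), Kcnip2 (-3.01 and -2.82), Dgat2 (-3.05 and -2.70), Pdk4 (-2.25 and -1.46), Klf15 (-1.86 and -1.65) and Nampt (-0.98 and -1.32). Ucp3, Dgat2 and Pdk4 act in mitochondrial and lipid metabolism, and Kcnip2 encodes a potassium channel subunit of cardiomyocytes. They fell in the same libraries as the cardiomyocyte markers, whose median log2 fold changes were -3.13 and -2.40, and the part of tissue make-up in their fall was not tested. Of 10 genes known to respond to glucocorticoids, 4 fell and 0 rose in control hearts and 4 fell and 1 rose in Vegfc-deficient hearts. Of 13 immediate early genes, 6 rose and 1 fell in control hearts and 6 rose and 0 fell in Vegfc-deficient hearts. Beside the same 50.4% and 57.6% of all genes, 4 and 5 of the 10 glucocorticoid genes and 7 and 6 of the 13 immediate early genes were called. Pdk4 and Cdkn1a are in both the output and the glucocorticoid list.

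**Figure D5:**
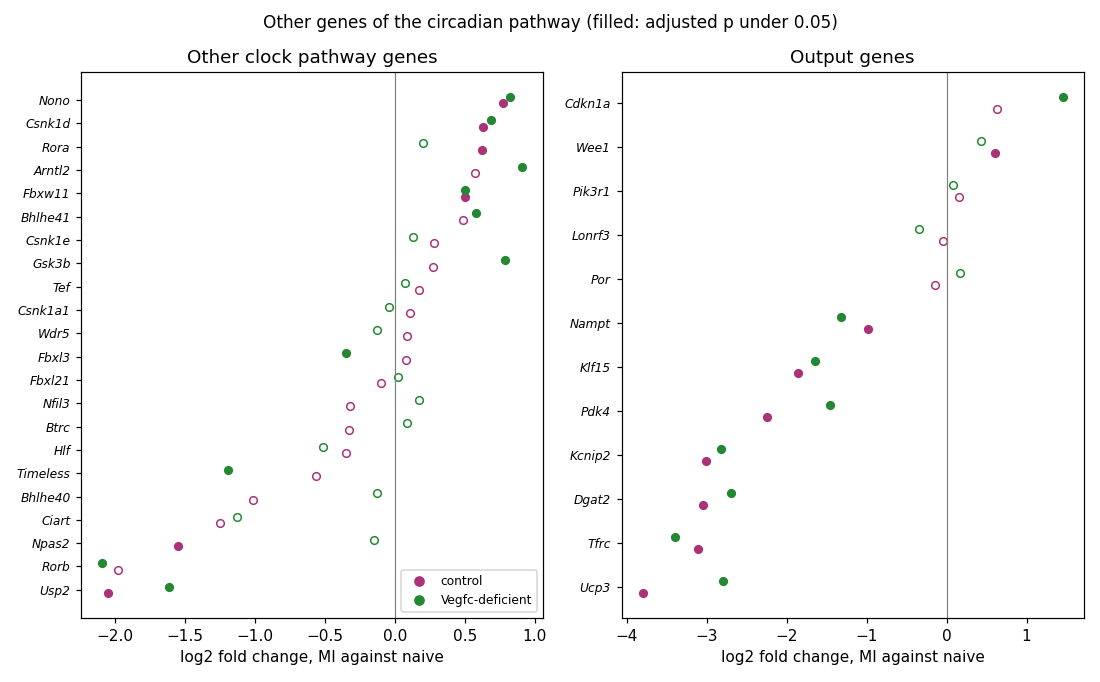
Log2 fold change of MI against naive hearts (x axis) for accessory clock genes and 12 output genes (y axes) in control and Vegfc-deficient mice, filled where the adjusted p was under 0.05 by edgeR. Ucp3, Tfrc, Kcnip2 and Dgat2 lie below -2 in both.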

How the data were processed

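Left ventricle RNA of 11 mice was sequenced from TruSeq stranded mRNA libraries. The authors deposited raw read counts per Ensembl gene for each library, and the submitters' processing notes name cutadapt 1.13, STAR, HTSeq 0.6.1p1, DESeq2 1.14.1 and the mm10 build. No normalization had been applied to the counts. The strand setting is not given in the sources used here. Symbols, positions and exons came from a GRCm38 annotation, which held 24991 of the 25006 identifiers.

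Counts were scaled by TMM, filtered with filterByExpr and tested with edgeR 4.0.16 (R 4.3.3) by the quasi-likelihood test, in 1 group-means fit of all 11 libraries with Benjamini-Hochberg adjustment over 14779 genes and a threshold of 0.05. Standard errors are the fold change over the root of F. Log2 CPM used a prior count of 2. Replicates are separate mice. Total counts ran from 10824989 to 26782728, and floors of 3 counts cover counting error only. Alternatives used DESeq2 1.42.0, limma 3.58.1 (voom with quality weights), other scaling, filters, thresholds and samples. The procedure was tested on simulated data.

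The members and lists were chosen with earlier results of these data known. The text names the 10 members, accessory and output genes called in the same direction in both MI comparisons, the 5 genes most like Arntl and like Dbp, genes sharing exons with a member, and Vegfc, Lyz2 and sex-linked genes as checks. Hlf, Tef, Ciart, Cdkn1a and Bhlhe40 were added after their values were seen, as was the exclusion of M35 and M149 together. The values of 1 accessory gene are not reported here, and it is counted in its list.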

Additional observations from a re-analysis of the deposited data

How the results depend on the processing

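Per3 kept its direction and its call in both comparisons of MI with naive hearts under all alternatives, at log2 fold changes of 1.21 to 1.71 in control and 0.93 to 1.30 in Vegfc-deficient hearts. Of 1040 recomputed fold changes of members (50 values), 957 kept direction and call, 23 gained a call, 60 changed sign and 0 lost a call. The cause of these changes was not tested.

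The members called in control hearts numbered 1, but 4 by limma-voom with quality weights, 2 with only the groups compared, 3 without M35 and M149, and 1 to 3 on dropping single libraries (3 without M35, 2 without M150, M38 or M900). In Vegfc-deficient hearts the 1 became 4, 2 and 4 under the same settings and 1 to 4 with single libraries left out (4 without M35, 2 without M006 or M38). Beside Per3, limma-voom called Per2, Cry1 and Nr1d1 in control hearts, and Nr1d1, Nr1d2 and Dbp in Vegfc-deficient hearts. With only the groups compared it was Nr1d1 in control and Per2 in Vegfc-deficient hearts. Accessory genes called in control hearts went from 7 to 3 once a log2 change of 1 or more in size was required, to 11 without M35 and M149, and to between 4 (without M45) and 9 with single libraries left out. In Vegfc-deficient hearts they went from 11 to 7 at an adjusted p under 0.01 and to 4 with that same size required. The share of all genes called in control hearts was 57.3% by limma-voom, 47.2% with only the groups compared, 53.4% without M35 and M149, 30.8% with the size required and 30.1% to 51.6% with single libraries left out. In Vegfc-deficient hearts it was 63.8%, 56.9%, 57.4%, 33.6% and 46.9% to 58.3%, and 41.3% at an adjusted p under 0.01. In naive hearts the count of accessory genes called between genotypes was 0 and became 1 (Bhlhe40) without M35 and M149. In that fit 47 of 14761 genes (0.318%) were called, against 0 in the main fit.

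Sign changes were in values that did not pass the test. In MI against naive, Per1 went to -0.06 in control hearts with DESeq2 size factors and with the DESeq2 Wald test, and to -0.01 in Vegfc-deficient hearts without M35 and M149. Between genotypes after MI, limma-voom gave -0.01 for Arntl, -0.12 for Per1, 0 for Per2, -0.12 for Per3, 0.06 for Cry1, -0.02 for Cry2 and -0.17 for Nr1d1. Leaving out M35 and M149 gave -0.18 for Per1, -0.20 for Per3, 0.11 for Cry1, -0.07 for Cry2 and -0.47 for Nr1d1. For the interaction, Cry2 was 0 with TMM factors computed without ribosomal, haemoglobin and mitochondrial genes, 0 at a mean CPM of at least 1, -0.10 by limma-voom and -0.14 without M35 and M149, which also gave -0.01 for Per1 and -0.18 for Nr1d1.

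With single libraries left out, log2 fold changes of MI against naive ran from -0.14 to 0.04 for Clock, -0.05 to 0.04 for Per1, -0.20 to 0.11 for Cry2 and -0.04 to 0.24 for Nr1d2 in control hearts, and from -0.22 to 0.05 for Cry2 and -1.27 to 0.15 for Nr1d1 in Vegfc-deficient hearts. Between genotypes after MI they ran from -0.38 to 0.22 for Arntl, -0.18 to 0.12 for Per1, -0.15 to 0.31 for Per2, -0.20 to 0.36 for Per3, -0.13 to 0.13 for Cry1, -0.07 to 0.23 for Cry2, -0.47 to 0.97 for Nr1d1, -0.49 to 0.04 for Nr1d2 and -0.57 to 0.32 for Dbp. Between naive genotypes they ran from -0.19 to 0.02 for Clock and -0.06 to 0.25 for Cry2. For the interaction they ran from -0.37 to 0.13 for Per2, -0.58 to 0.01 for Per3, -0.16 to 0.17 for Cry2 and -0.17 to 1.28 for Nr1d1. Pearson's r with Arntl over MI libraries ran from -0.25 to 0.51 for Per3 and -0.53 to 0.40 for Cry2.

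No paired analysis was possible because mouse numbers are not shared between groups. DESeq2 size factors lowered the median of all genes from 0.13 to 0.07 in control and from 0.10 to 0.04 in Vegfc-deficient hearts. Arntl rested on 34 to 313 counts per library, which limits its precision.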
